A study of Rattus norvegicus with 2 samples.

Results

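Tsc22d3, Sgk1, Klf9 and Errfi1 are genes that glucocorticoids induce in liver and in other tissues. Of the 10411 genes named on these rat liver arrays they are 4, read by 6 of 15923 probe sets, taken as every probe set whose single symbol in the platform annotation is 1 of them. Klf9 had 3 probe sets and each of the other genes had 1. The study compared liver total RNA of SD rats on a high-fat diet, 1 array, with that of SD rats on a low-fat diet, 1 array. Both foods were based on AIN93G, a purified rodent diet. The labels give an age of 4 weeks and 9 weeks of feeding for both groups. The time to which that age refers is not given here, so it need not be the age at collection. The fat content, the sex, the hour of collection, the feeding state and whether an RNA came from 1 rat or a pool were not stated in the labels. A single array per diet leaves no replicate and no test, so each value and ratio describes these 2 arrays.

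Glucocorticoids such as corticosterone, the main one in rats, enter the cell and bind the receptor encoded by Nr3c1, which chaperones hold ready in the cytosol. The bound receptor moves to the nucleus and raises transcription of target genes, many of which feed back on signalling. In liver the hormone supports glucose production in fasting and damps inflammation, and its level in blood follows the time of day, food and stress. The 4 genes act on different pathways. Tsc22d3 encodes GILZ, a leucine zipper protein that binds NF-kappaB and AP-1 subunits. Sgk1 encodes a kinase that is also induced by serum and by osmotic stress. Klf9 encodes a zinc finger repressor that binds GC-rich DNA and also responds to thyroid hormone. Errfi1, first described in rat liver as gene 33, encodes a feedback inhibitor of the EGF receptor kinase.

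The start-site windows of the 4 genes are shown because the genes are grouped by a shared regulator. The windows come from RefSeq on build GRCr8 and run from 250 bases before a start site to 50 bases after it. All 4 genes matched by symbol, with 8 windows in all, and for Tsc22d3 and Sgk1, with 3 start sites each, the most downstream one is printed. That of Tsc22d3 is chrX:109009985-109010284 (minus strand), that of Sgk1 chr1:24804782-24805081 (minus strand), that of Klf9 chr1:230126396-230126695 (plus strand) and that of Errfi1 chr5:166606591-166606890 (plus strand). Capitals mark the forkhead word GTAAACA, the cyclic AMP response core TGACG and the GC box GGGCGG on either strand, and the TATA word TATAAA on the printed strand.
Tsc22d3: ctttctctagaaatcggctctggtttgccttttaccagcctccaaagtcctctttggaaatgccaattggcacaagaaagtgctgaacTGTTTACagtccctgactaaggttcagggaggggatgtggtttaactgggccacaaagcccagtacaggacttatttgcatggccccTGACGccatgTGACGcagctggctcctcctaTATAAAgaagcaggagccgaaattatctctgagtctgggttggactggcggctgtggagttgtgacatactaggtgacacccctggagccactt
Sgk1: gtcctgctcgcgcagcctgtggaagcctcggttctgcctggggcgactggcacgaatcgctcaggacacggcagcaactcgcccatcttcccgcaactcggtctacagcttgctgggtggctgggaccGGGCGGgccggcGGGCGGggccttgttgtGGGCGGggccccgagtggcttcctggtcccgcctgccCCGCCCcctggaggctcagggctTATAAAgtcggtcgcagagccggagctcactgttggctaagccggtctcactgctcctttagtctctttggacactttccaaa
Klf9: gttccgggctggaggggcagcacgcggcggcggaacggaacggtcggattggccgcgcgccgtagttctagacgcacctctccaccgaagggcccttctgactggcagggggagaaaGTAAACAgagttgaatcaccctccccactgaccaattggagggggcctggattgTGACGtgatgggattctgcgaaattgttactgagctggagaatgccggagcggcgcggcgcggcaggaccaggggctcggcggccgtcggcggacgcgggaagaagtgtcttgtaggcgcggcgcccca
Errfi1: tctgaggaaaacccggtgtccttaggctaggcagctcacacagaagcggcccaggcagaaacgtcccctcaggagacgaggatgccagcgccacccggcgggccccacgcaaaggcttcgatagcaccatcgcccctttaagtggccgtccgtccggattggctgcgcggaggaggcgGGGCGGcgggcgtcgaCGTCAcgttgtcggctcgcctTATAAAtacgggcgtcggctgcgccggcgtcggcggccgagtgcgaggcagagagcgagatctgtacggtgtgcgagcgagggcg
The glucocorticoid receptor hexamer AGAACA was in none of the 8 windows on either strand, against 20.7% of 33469 rat windows of the same length. The full palindromic element, that hexamer and its reverse complement with 3 bases between them, was in none of the 8 either, and in 0.0149% of all windows. The forkhead word was in 2 of the 8, those printed for Tsc22d3, 162 bases before the start, and for Klf9, 133 bases before it, against 3.78% of all. The TATA word was in 4 of the 8 (8.8% of all), GGGCGG in 5 (33.1%) and TGACG in 3 (21.2%). The printed Sgk1 window held GGGCGG at 4 places and TATAAA 33 bases before the start. The motifs were chosen after the windows had been seen. A match is a run of letters and not a binding site, and most of the sequence around these genes lies outside the windows.

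The arrays carried the markers of liver. Hepatocyte markers summed to 43188.6 signal units on the high-fat and 42367.9 on the low-fat array over 10 of 11 listed genes, led by Alb at 9255.6 on the high-fat and 9119.2 on the low-fat array. All 7 lymphocyte markers named on the array were below the floor on both arrays. The floor used here is the median signal of an array over all probe sets that are not controls, 14.0 on the high-fat and 15.7 on the low-fat array. A probe set was counted as measured where its mean log2 signal reached the mean log2 of both floors, which held for 7864 probe sets and 6012 genes. Ratios are log2 of high-fat over low-fat after subtraction of their median over measured probe sets, -0.12. Without that centring, 1996 of the measured genes were higher and 4002 lower on the high-fat array. Ratios are set beside the robust SD of the centred ratio in its bin, 1 of 10 equal bins of measured probe sets by mean signal. It was 0.49 in the dimmest bin and 0.17 in the brightest.

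Of the 6 probe sets, 5 were measured, which covered all 4 genes. Sgk1 was higher on the high-fat array, and the other 4 measured probe sets had ratios near 0. None of the 5 reached 2-fold, against 1.68% of all measured probe sets. At 1.5-fold or more there was 1 of 5, Sgk1, against 9.8% of measured probe sets in either direction and 4.29% on the higher side. With a pseudocount of 50 Sgk1 was at 1.46-fold, below that threshold. In deposited signal, before centring, 5 of the 6 were lower on the high-fat array, among them a Klf9 probe set below both floors. Of the 5 measured, 4 were lower, beside 4002 of the 6012 measured genes.

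**Figure D1:**
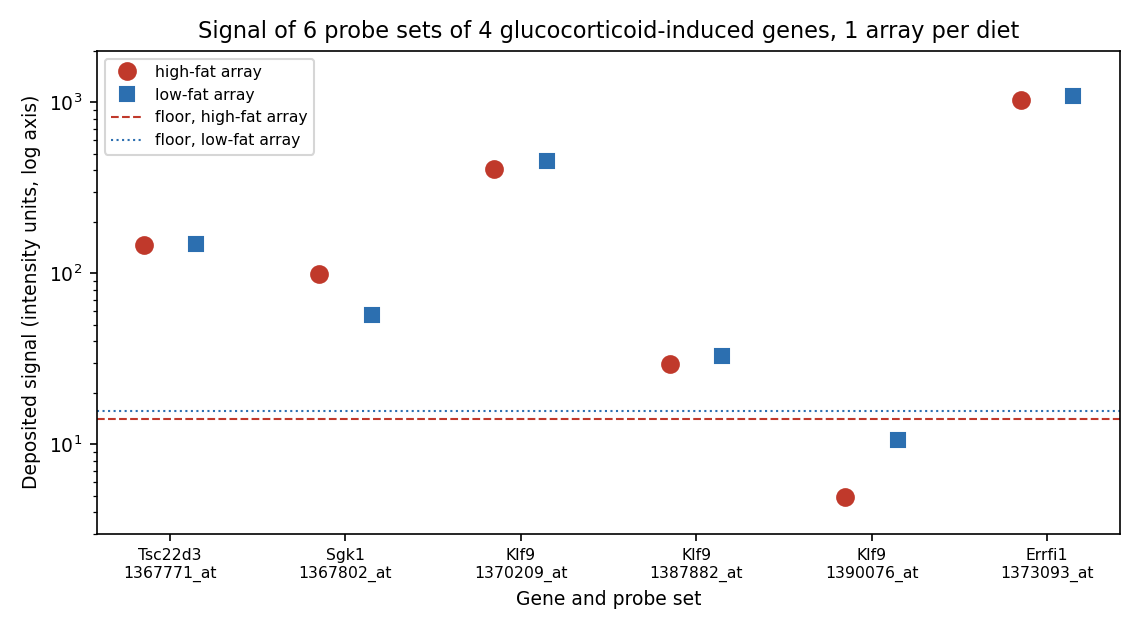
Deposited signal (log axis, intensity units) of the 6 probe sets of Tsc22d3, Sgk1, Klf9 and Errfi1, with 1 point for the high-fat array (red circles) and 1 for the low-fat array (blue squares); the horizontal lines are the floors, 14.0 for the high-fat and 15.7 for the low-fat array. Only the Sgk1 probe set is higher on the high-fat array, at 99.1 against 56.6, and the Klf9 probe set 1390076_at lies below both floors.

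Sgk1, the serum- and glucocorticoid-regulated kinase, had a signal of 99.1 on the high-fat array and 56.6 on the low-fat array (probe set 1367802_at, accession NM_019232). Both signals were above their floors, by 7.08 times on the high-fat and 3.61 times on the low-fat array. Ranked by signal within its array, which needs no scaling between arrays, the probe set was at percentile 85.6 on the high-fat and 76.3 on the low-fat array. Such a rank depends on the probes as well as on the RNA, so it does not order genes by abundance. The centred log2 ratio was 0.92, a 1.90-fold difference, and 0.81 or 1.75-fold in the signals as deposited. That ratio was 4.12 robust SDs of its bin (0.22). Of the 787 probe sets in the bin, Sgk1 included, 9 had a ratio at least as far from 0 (1.14%) and 4 one at least as high (0.508%). Sgk1 has a single probe set here, so no second reading of the gene was at hand. Where 2 or more probe sets of a gene were measured, in 696 genes, the ratios of the brightest and the next differed with an SD of 0.42.

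Tsc22d3 had nearly equal signals, 147.0 on the high-fat and 148.6 on the low-fat array (probe set 1367771_at, accession NM_031345). The centred log2 ratio was 0.10 and the uncentred one -0.02, so the sign depends on the centring. Its rank was percentile 89.4 on the high-fat and 88.8 on the low-fat array. Its size was 0.46 robust SDs of its bin, in which 510 of 786 probe sets (64.9%) had a ratio at least as far from 0.

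Errfi1 had a signal of 1031.6 on the high-fat and 1093.5 on the low-fat array (probe set 1373093_at, accession AI169756). Its rank was percentile 98.3 on the high-fat and 98.4 on the low-fat array. The centred log2 ratio was 0.03, or 0.19 robust SDs, and -0.08 without centring. Among the 787 brightest measured probe sets, 84.5% had a ratio at least as far from 0.

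Klf9 was read by 3 probe sets, and the 2 that were measured gave nearly the same ratio at very different signals. Probe set 1370209_at had 409.5 on the high-fat and 451.8 on the low-fat array, with a centred log2 ratio of -0.03. Probe set 1387882_at had 29.5 on the high-fat and 32.7 on the low-fat array, also with a ratio of -0.03. The annotation gives these 2 probe sets the same accession, AI071565. Before centring the ratios were -0.14 and -0.15. The first ranked at percentile 95.7 on the high-fat and 95.8 on the low-fat array, the other at 65.5 on the high-fat and 65.4 on the low-fat array. The remaining one, 1390076_at (accession BE109608), had 4.9 on the high-fat and 10.6 on the low-fat array, both below the floors, so no fold is given for it.

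**Figure D2:**
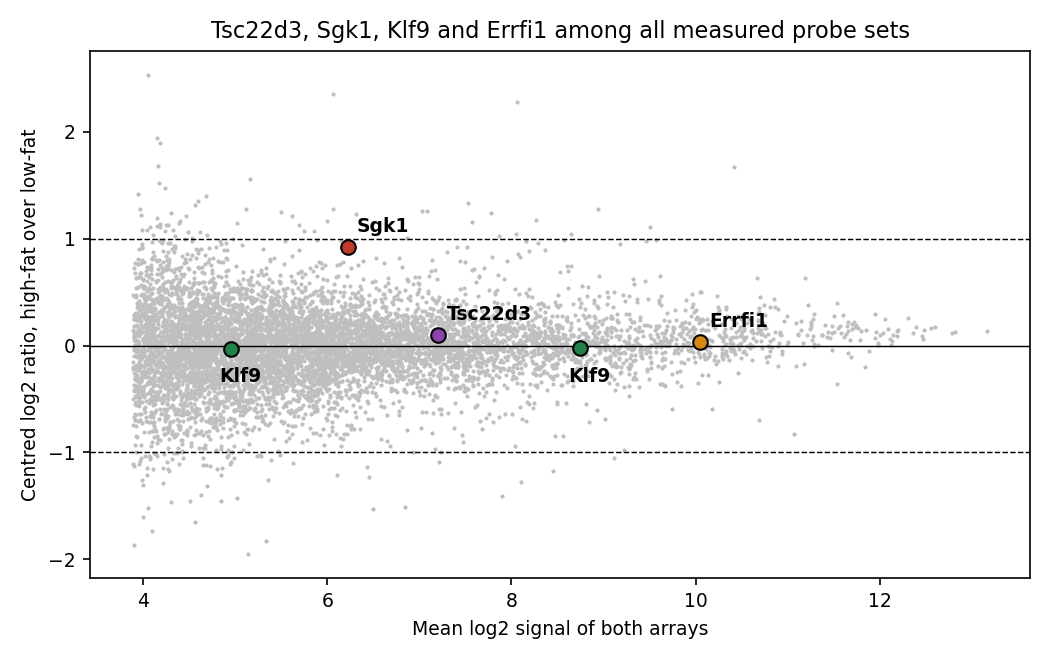
Centred log2 ratio, high-fat array over low-fat array, against the mean log2 signal of both arrays for the 7864 measured probe sets (grey), with the 5 measured probe sets of the 4 genes as large labelled points; dashed lines mark 2-fold. Sgk1 lies at 0.92, just inside the 2-fold line and at the edge of the cloud at its signal, while Tsc22d3, Errfi1 and both Klf9 points lie close to 0.

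Genes that sense or supply the hormone were mostly measured on both arrays. Of 8 listed receptors and steroid-handling genes, 6 were measured, 4 higher and 2 lower on the high-fat array, beside 50% each way over all measured genes. None was past 2-fold, where 0.848% of all measured genes were higher and 0.865% lower. Their median log2 ratio was 0.25, beside 0.00 over all 6012 measured genes. Nr3c1, the glucocorticoid receptor, had 65.5 on the high-fat and 74.6 on the low-fat array, a ratio of -0.07, and its second probe set was below the floor. Hsd11b1, which regenerates active glucocorticoid inside hepatocytes, had 1431.4 on the high-fat and 1406.0 on the low-fat array (0.14). H6pd, which supplies that enzyme with NADPH, was at 0.53, with 303.0 on the high-fat and 227.6 on the low-fat array. Akr1d1, a steroid reductase that inactivates glucocorticoids and also makes bile acids, was at 0.47. Serpina6, the corticosteroid-binding globulin secreted by liver, was at 0.35. With median centring those 3 genes were at least 2 robust SDs above 0, where 3.84% of all measured genes were. Akr1d1 was at 2.74, H6pd at 2.33 and Serpina6 at 2.07 robust SDs. The call depends on the scaling. Over the 4 other scalings Akr1d1 was at 0.35 to 0.41, H6pd at 0.41 to 0.52 and Serpina6 at 0.24 to 0.30. Hsd11b2, which inactivates the hormone in kidney, was at -0.35 with low signals of 27.2 on the high-fat and 37.6 on the low-fat array.

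Of 15 listed chaperones of the receptor, 13 were measured, 7 higher and 6 lower, with a median of 0.05. Without centring 5 were higher and 8 lower, beside 1996 higher and 4002 lower of all measured genes. Fkbp5, an immunophilin that lowers the receptor's affinity for hormone and is itself a strong glucocorticoid target, was the farthest from 0. Its signal was 56.1 on the high-fat and 133.6 on the low-fat array, a log2 ratio of -1.14 or 2.20-fold lower. It was past 2-fold under all 4 other scalings, but not with a pseudocount of 16 (-0.96) or 50 (-0.73). Sgk1, an induced gene like Fkbp5 and in the same bin of signal, went the opposite way on these arrays. Fkbp4, the immunophilin that promotes transport of the receptor to the nucleus, had 248.3 on the high-fat and 203.4 on the low-fat array (0.40). The co-chaperone genes Ppid and Ptges3 were at 0.57 and 0.39. Coregulators were 6 higher and 6 lower among 12 measured of 18, with a median of -0.02. Of these, Med1, a Mediator subunit that nuclear receptors bind, was at -1.12, and its second probe set at -0.25. With a pseudocount of 50 the first was at -0.36, no longer past 2-fold. Smarca4, a chromatin remodeller, was at -0.62, the histone deacetylase gene Hdac1 at -0.48 and the acetyltransferase gene Crebbp at 0.59, all with signals of 65.0 or less. A second probe set of Smarca4 was at -0.28, and another, below its floor on the low-fat array, was at least 1.20-fold higher.

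Other genes known to be induced by glucocorticoids were measured in 34 of 46 cases, with 13 higher and 21 lower on the high-fat array. Their median log2 ratio was -0.09. Without centring 10 were higher and 24 lower. Over all measured genes the split was 50% each way with centring, and 1996 higher and 4002 lower without it. By the ratios as they stood, 1 gene was past 2-fold higher and 2 lower. Over all measured genes, also without bounds, 0.848% were past 2-fold higher and 0.865% lower. With Mt1, below its floor on the high-fat array, taken at its bound, 1 gene of the list was past 2-fold higher and 1 lower. By the ratios as they stood, 9 genes were at least 2 robust SDs lower and 1 that far higher. Over all measured genes, also without bounds, 3.99% were that far lower and 3.84% that far higher. With Mt1 at its bound, 8 genes of the list were that far lower. The list was drawn up with earlier results of these arrays known, several of its low genes among them, so these counts describe it and support nothing further. Many of its genes also answer to other signals.

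Several signalling and metal-binding genes of this list had lower ratios. Against the 21 lower genes of the list, 13 were higher. Among these were Gadd45g at 0.62 and Cdkn1a at 0.36, named after their values were seen. Zfp36, which promotes decay of cytokine mRNAs, had 77.1 on the high-fat and 131.2 on the low-fat array (-0.65). Dusp1, a phosphatase of MAP kinases, had 116.1 on the high-fat and 190.0 on the low-fat array (-0.59), and its second probe set was at -0.22. Per1, a clock repressor gene with a known receptor binding site in mouse, had 21.6 on the high-fat and 37.9 on the low-fat array (-0.69). Mt2A, a metallothionein, which binds zinc and copper, had 1544.1 on the high-fat and 2967.6 on the low-fat array (-0.83). Mt1 had 11.9 on the high-fat array, below its floor, and 26.4 on the low-fat array, at least 1.74-fold lower. Metallothionein sequences are alike, so a probe set cannot be assigned to 1 of them with certainty.

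The named metabolic genes of the list lay on both sides of 0. Tat, tyrosine aminotransferase and a classical glucocorticoid target in liver, had 709.9 on the high-fat and 639.1 on the low-fat array (0.27). Pck1, which controls gluconeogenesis, had 1440.6 on the high-fat and 1503.7 on the low-fat array, a ratio of 0.05 that was negative under all 4 other scalings. Igfbp1, a binding protein for insulin-like growth factors, was at -0.01, with 106.6 on the high-fat and 116.1 on the low-fat array. Lpin1, a phosphatidate phosphatase and coactivator, was lower, with 182.4 on the high-fat and 379.7 on the low-fat array (-0.94). Lcn2, an iron-carrier-binding acute phase protein, had 31.4 on the high-fat and 16.9 on the low-fat array (1.01), and was past 2-fold under 2 of the 4 other scalings and not with a pseudocount of 50 (0.34). All 3 probe sets of Cebpd were below both floors. Further genes, chosen after their values were seen, were Gpt at -0.85, Txnip at -0.84, Angptl4 at -0.67, Per2 at -0.29, Klf15 at 0.16 and Tdo2 at 0.05.

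**Figure D3:**
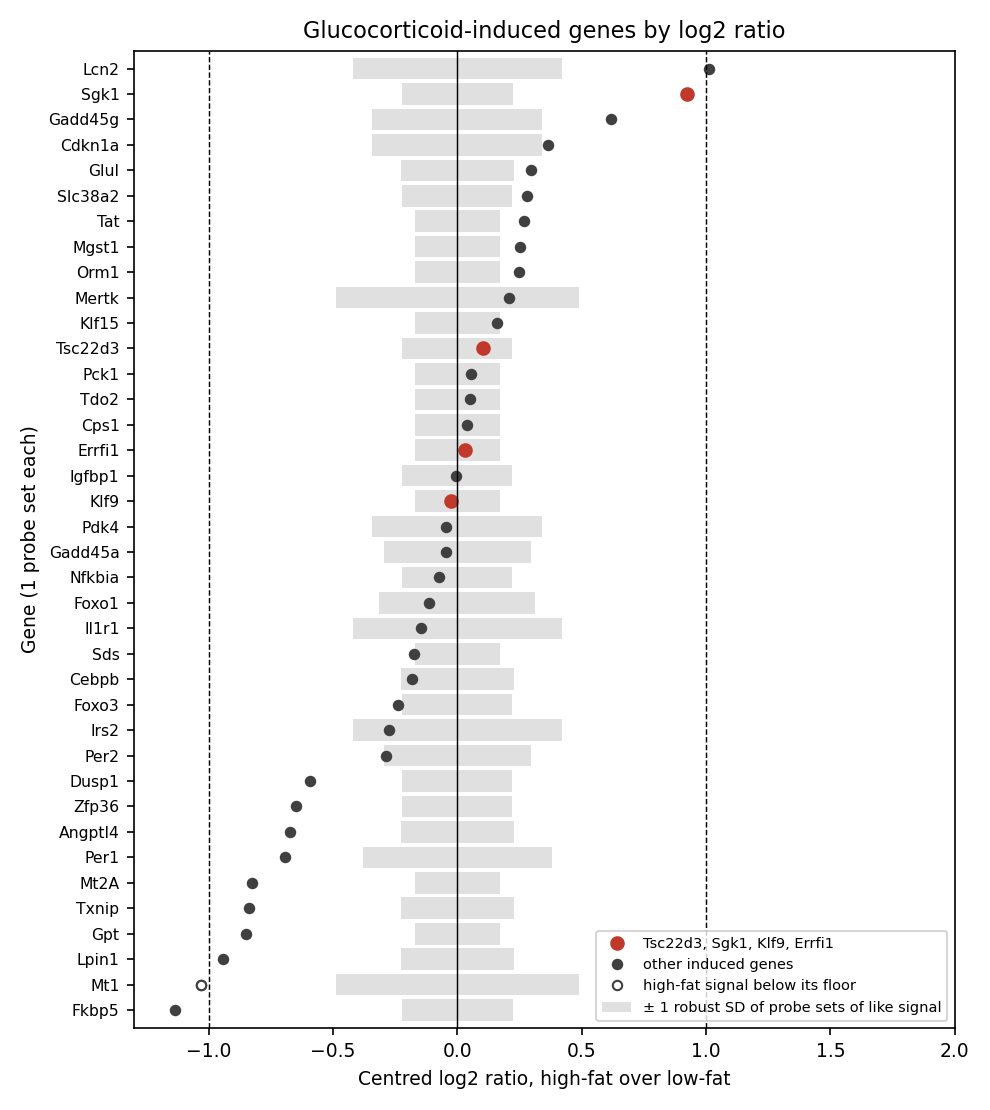
Centred log2 ratio, high-fat array over low-fat array, for Tsc22d3, Sgk1, Klf9 and Errfi1 (red, brightest probe set) and 34 other glucocorticoid-induced genes (dark), ordered by ratio; grey bars are ± 1 robust SD of measured probe sets of like signal, dashed lines mark 2-fold, and the open point is Mt1, below its high-fat floor. Sgk1 is the second highest at 0.92 after Lcn2 at 1.01, the other 3 red points lie within their grey bars, and Fkbp5 is the lowest at -1.14.

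Most measured genes of a list around Sgk1 had ratios below 0. This list holds its sister kinases, activators and substrates, and other genes around it such as Akt1, Akt2 and Nherf2. Of its 20 genes, 16 were measured, 2 higher and 14 lower, beside 50% each way over all measured genes. Their median was -0.27. None was past 2-fold and none was 2 robust SDs from 0. Without centring the count was 1 higher and 15 lower, where 1996 of all measured genes were higher and 4002 lower. The list was chosen with earlier results of these arrays known, so its counts describe it and no more. Sgk3, a sister kinase, was at -0.65 with 14.5 on the high-fat and 24.7 on the low-fat array. Mtor, Mapkap1 and Mlst8, subunits of the complex that phosphorylates Sgk1, were at -0.42, -0.54 and -0.37. Nedd4l, a ubiquitin ligase that Sgk1 phosphorylates, had 54.7 on the high-fat and 67.5 on the low-fat array (-0.19). The sodium channel subunit genes Scnn1a, Scnn1b and Scnn1g, regulated through Nedd4l in kidney, were not measured on any of their probe sets.

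The relatives of Tsc22d3 included a gene that differed more than Tsc22d3 did. Tsc22d1, a TSC22 domain protein of the same family, had 1024.8 on the high-fat and 513.7 on the low-fat array, a log2 ratio of 1.11 or 2.16-fold higher. It was 2-fold or more higher under 3 of 4 other scalings, and just under it at 0.996 without centring and 0.993 with a pseudocount of 50. Tsc22d4 was below both floors on its 2 probe sets. The list of TSC22 proteins, their partners and the factors Tsc22d3 binds had 3 higher and 5 lower among 8 measured of 16, with a median of -0.06. Nfkb1, an NF-kappaB subunit, was at 0.34, and Nfkbib, an inhibitor of NF-kappaB, at -0.45. Jun, an AP-1 subunit, was at -0.21, with its other probe sets at 0.70 and 0.12.

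Among Krüppel-like and Sp factors other than Klf9, 8 of 18 were measured, 3 higher and 5 lower, with a median of -0.19. Klf10, a TGF-beta-inducible repressor, was past 2-fold at -1.04, with 26.1 on the high-fat and 58.0 on the low-fat array, and at -0.44 with a pseudocount of 50. Klf13, a close relative of Klf9, had 29.2 on the high-fat and 48.9 on the low-fat array (-0.63). Klf3 was at -0.25, and Klf2, below its floor on the high-fat array, was at least 1.11-fold lower.

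In the EGF receptor family, the target of the Errfi1 protein, 9 of 24 listed receptors, ligands, adaptors and inhibitors were measured, 4 higher and 5 lower. The median was -0.01. Egfr, the receptor that Errfi1 inhibits, had 164.2 on the high-fat and 154.9 on the low-fat array, a ratio of 0.20, and its second probe set was at 0.32. Lrig1, another inhibitor of the receptor, was at 0.27. Cbl, the ubiquitin ligase that tags the receptor, and Erbb3, a receptor of the family with little kinase activity of its own, were below the floor on the high-fat array and at least 1.69-fold and 1.46-fold lower.

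**Figure D4:**
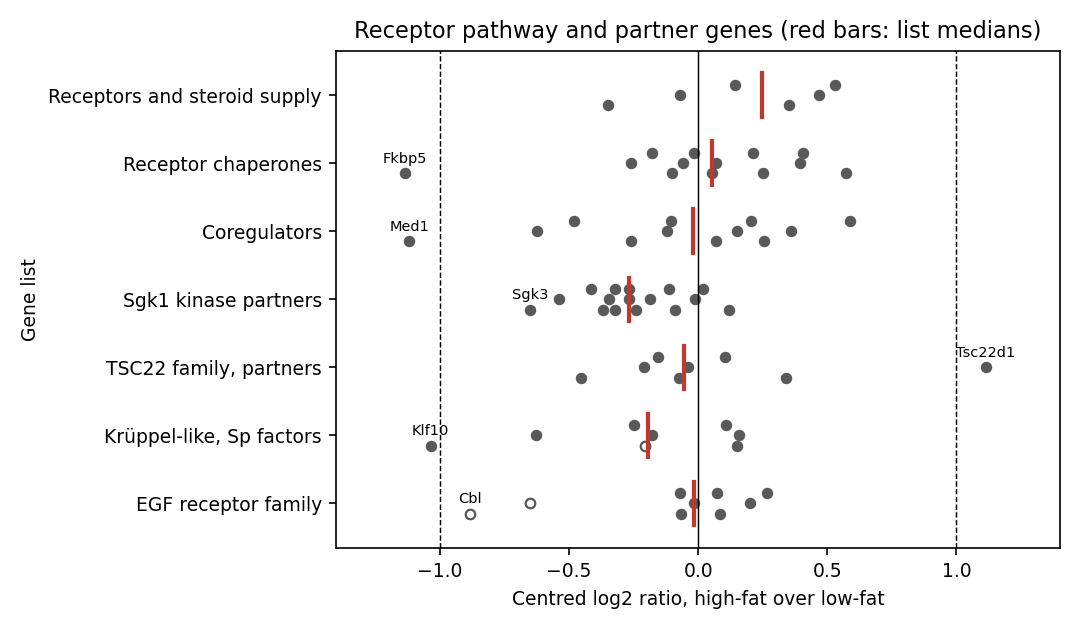
Centred log2 ratio, high-fat array over low-fat array, for measured genes of 7 lists around the receptor and the 4 genes, with 1 point per gene, red bars for list medians, dashed lines at 2-fold and open points for genes below the high-fat floor. The Sgk1 partners have the lowest median, -0.27. Tsc22d1 at 1.11 is the highest point and Fkbp5 at -1.14 the lowest.

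Values of RNA quality and tissue composition stood as follows beside these ratios. For beta-actin, the 3′ control signal was 2.85 times the 5′ one on the high-fat and 2.69 times on the low-fat array. For Gapdh it was 1.67 times on the high-fat and 1.58 times on the low-fat array. Kupffer cell markers summed to 913.5 on the high-fat and 1090.0 on the low-fat array, with 2 of 6 higher and 4 lower. Endothelial markers summed to 282.0 on the high-fat and 329.2 on the low-fat array. Stellate cell markers summed to 255.0 on the high-fat and 331.2 on the low-fat array. All 3 measured endothelial and all 3 measured stellate markers were lower after centring, with medians of -0.03 and -0.28. Col1a2, 1 of these stellate markers, was below its floor on the high-fat array. A further 5 stellate markers were below both floors, of which Col1a1 and Pdgfrb had the higher signal on the high-fat array. All 10 measured hepatocyte markers were higher after centring, with a median of 0.14. In deposited signal Ttr, Apoa1 and Cps1 were lower on the high-fat array and the other hepatocyte markers higher. Apoa1, for example, had 3910.0 on the high-fat and 4161.3 on the low-fat array. The part of RNA quality and tissue composition in the ratios was not tested. In whole liver a change in cell numbers and a change in RNA per cell cannot be told apart.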

How the data were processed

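The authors deposited linear signal intensities, a single value for each probe set on each array. How these were made from the scans, and whether arrays were scaled, is not given in the sources used here. Linear intensity was inferred since no value is below 0 and the highest are 9255.6 on the high-fat and 9119.2 on the low-fat array. Each array's diet came from the sample title.

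Controls (57 probe sets) and 4 probe sets with a 0 were left out of ratios. Of 15866 other probe sets, 12783 had 1 gene symbol in the platform annotation, 312 several and 2771 none. Symbols were updated by Entrez identifier through RefSeq genes of GRCr8. Log2 ratios carried no pseudocount. For listed genes the brightest measured probe set was used. Where 1 array was below its floor, the fold is a bound taken against the floor. The number of arrays limits the precision.

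All probe sets of the 4 genes are reported. Named from each list were the 4 genes farthest from 0, and also Nr3c1, Hsd11b1, Fkbp5, Fkbp4, Tat, Per1, Dusp1, Zfp36, Egfr, Nedd4l, Klf13, Tsc22d1, Tsc22d4, Mt1, Mt2A, Igfbp1, Pck1 and Cebpd. Some other genes are named outside this rule. Of these, Gpt, Txnip, Angptl4, Per2, Klf15, Tdo2, Gadd45g and Cdkn1a were picked after their values were seen. With 2 arrays no likeness of pattern was measured. The genes, lists and alternatives were chosen with earlier results of these data known. Alternatives were no centring, quantile normalization, loess, centring on 18 hybridization controls, pseudocounts of 50 and 16, floors at the 25th and 75th percentile, and the median over probe sets. The steps were tested on simulated data with planted 4-fold changes. These are larger than any ratio named here, so recovery of smaller changes was not tested. Python 3.11.15 was used with numpy 2.4.6, pandas 2.3.3, statsmodels 0.14.6 and matplotlib 3.10.9.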

Additional observations from a re-analysis of the deposited data

How the results depend on the processing

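With 1 array per diet, a value is said to have moved where it shifted by more than the robust SD of its signal bin, or a count where it changed by over 1.5 times. Of 39 alternative values of the 5 measured probe sets, 38 stayed within that spread. The exception was Sgk1 with a pseudocount of 50, at 0.55 against 0.92, which ends its 1.5-fold call, and its range over all settings was 0.55 to 0.94. Tsc22d3 ranged from -0.02 to 0.12, Errfi1 from -0.08 to 0.05, and the Klf9 probe sets from -0.14 to -0.01 and from -0.15 to 0.01, so Tsc22d3, Errfi1 and 1387882_at have no settled sign. All 12 alternative values of the brightness rank of the 6 probe sets were counted as the same. A rank within 1 array does not depend on scaling between arrays, so this says nothing about the ratios. Of 112 alternative list counts, 15 moved. With the floor at the 75th percentile, fewer genes were measured, and the count lower was 1 for receptors and steroid supply, 1 for coregulators (with 2 higher), 7 for Sgk1 partners (with 1 higher), 0 for the EGF receptor family, 0 for Krüppel-like factors and 3 for TSC22 proteins (with 1 higher). With the floor at the 25th percentile, 4 Sgk1 partners and 9 genes of the EGF receptor family were higher. Sgk1 partners higher numbered 1 without centring, with quantile normalization and with hybridization control centring, and 2 of the EGF receptor family were higher without centring. Of 308 alternative values of 41 listed genes, none that was past 2-fold changed sign and 13 moved, all with a pseudocount, which understates ratios of dim genes. With a pseudocount of 50 every listed gene named as past 2-fold fell inside it, Fkbp5 at -0.73, Klf10 at -0.44, Med1 at -0.36, Mt1 at -0.24, Lcn2 at 0.34 and Tsc22d1 at 0.99. With 16, Tsc22d1 alone stayed past it, at 1.07. The sign of Pck1 flipped with the scaling. No paired analysis was possible because each diet has 1 array. No replicate could be left out.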
